A study of Mus musculus with 12 samples.

Results

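Genes of cholesterol synthesis and sterol transport were followed in messenger RNA of the mouse cerebellum. The 29 genes were chosen by symbol and role from the table of 18394 genes: 7 enzymes of the mevalonate pathway, 11 enzymes of the later sterol steps, 6 regulators and 5 genes of transport and lipoproteins. All 29 were in the table and all 29 passed the filter on low counts, which kept 15467 genes. The libraries came from 6 wild-type cerebella (WT) and 6 cerebella of conditional knock-outs of Crfr1 made with the deltaalpha6-Cre driver (cKO). Crfr1 is a receptor for the stress peptide corticotropin-releasing factor and is listed under the symbol Crhr1, and the driver takes its name from Gabra6, the GABA-A receptor gene for the α6 subunit that marks granule cells of the cerebellum. The labels give no strain, age, sex, litter, floxed allele or treatment, and name no group that carries the driver alone, so the driver and the loss of the receptor cannot be told apart. Every library averages all cell types of the cerebellum, and in such bulk samples fewer cells of a type and less RNA per cell cannot be told apart.

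Cells make cholesterol from acetyl-CoA. The mevalonate pathway builds isoprenoid units, squalene synthase joins them into squalene, squalene epoxidase opens the sterol branch, and later enzymes trim lanosterol to cholesterol. Most of these enzymes are switched on together by the transcription factor SREBP-2, which SCAP escorts out of the endoplasmic reticulum when sterols are low and INSIG proteins hold back when sterols are plentiful. When oxidised sterols build up, the liver X receptors (LXRs) instead switch on genes of sterol export such as Abca1 and Abcg1. The brain makes its own cholesterol behind the blood-brain barrier. In the adult, glia make much of it, and astrocytes pass it to neurons on particles that carry apolipoprotein E.

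The libraries held between 23.8 and 62.1 M counts each (M, 1e6), and the cKO libraries were mostly deeper. WT replicates 1 to 6 held 23.8, 28.6, 41.1, 30.2, 31.8 and 62.1 M, and cKO replicates 1 to 6 held 32.3, 43.1, 55.1, 56.5, 49.2 and 58.7 M. Crhr1 itself had 91.6 to 101.6 CPM (counts per 1e6 after scaling of the libraries by TMM) in WT and 88.7 to 104.8 CPM in cKO, with a log2 fold change of 0.02 (SE 0.04). A count over the whole gene, from tissue in which other cells keep the gene, does not check the deletion. The tissue carried its defining neuronal markers, with 8466 to 8755 summed CPM over 8 Purkinje cell genes in WT and 7879 to 8918 in cKO, and 5460 to 5727 over 10 granule cell genes in WT and 5315 to 5667 in cKO. The granule cell genes nevertheless moved with genotype: 4 of the 10 fell and 2 rose (60%, against 2.64% of all genes tested; edgeR quasi-likelihood test, Benjamini-Hochberg adjusted over all genes). Gabra6 itself ran from 710.0 to 871 CPM in WT and from 583 to 669 CPM in cKO, without overlap (log2 fold change −0.38, edgeR adjusted p = 1.45e-05). The part of granule cells in the results below was not tested.

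The promoters of 3 members are shown because they belong to the best known sterol-sensing switches and to genes described below: Hmgcs1 and Abca1, which were lower in cKO, and Srebf1, which was not called. Each is the stretch of 250 bases before a start site in RefSeq (GRCm38.p6, the build of mm10), written in the direction of transcription. Capitals in Hmgcs1 mark the letters TCACNCCAC, the core of the sterol regulatory element that SREBPs bind. Capitals in Abca1 and Srebf1 mark, read from the other strand, the half-sites GGTNA and GGTCA with NNNNN between them, spaced as in elements that LXRs bind (N, any base).
Hmgcs1, chr13:119690101-119690350, plus strand: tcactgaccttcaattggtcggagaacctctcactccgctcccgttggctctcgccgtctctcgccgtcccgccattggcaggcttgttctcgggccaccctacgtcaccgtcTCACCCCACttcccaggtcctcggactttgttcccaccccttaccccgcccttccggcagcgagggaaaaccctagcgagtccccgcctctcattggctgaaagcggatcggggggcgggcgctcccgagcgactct
Abca1, chr4:53159896-53160145, minus strand: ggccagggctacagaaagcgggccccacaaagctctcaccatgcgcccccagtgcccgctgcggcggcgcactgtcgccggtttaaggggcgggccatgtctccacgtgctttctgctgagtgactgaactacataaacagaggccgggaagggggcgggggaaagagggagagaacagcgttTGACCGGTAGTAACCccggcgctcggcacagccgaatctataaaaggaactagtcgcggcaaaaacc
Srebf1, chr11:60210472-60210721, minus strand, an internal start site of the gene: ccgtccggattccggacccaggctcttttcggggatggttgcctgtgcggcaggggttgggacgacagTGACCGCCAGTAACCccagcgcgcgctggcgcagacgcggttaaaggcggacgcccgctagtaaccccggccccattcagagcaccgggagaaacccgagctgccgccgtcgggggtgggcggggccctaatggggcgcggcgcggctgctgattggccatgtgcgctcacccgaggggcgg

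Both strands were searched in the 250 bases before each start site, and 23 of the 29 members had at least 1 promoter in the table. Sqle, Fdps, Fdft1, Stard4, Abcg1 and Lpl had none there, so they were not searched for any of these letters. The sterol element letters began 137 bases before the start of Hmgcs1. They were found in no other of the 23 members, against 1.27% of the 11583 tested genes with a promoter. A shorter form, TCACNCCA, which every match of the longer one contains, was found in 4 members (Hmgcs1, Srebf2, Msmo1 and Apoe), against 4.07% of those genes. The LXR type letters were found in Abca1, where they began 67 bases before the start, and in Srebf1, 182 bases before it, against 0.155% of the genes. Their wording was set after the Abca1 promoter had been read, so the match in Abca1 was built in. CCAAT, the site of the factor NF-Y that often works beside SREBPs, was found in 17 of the 23 members, against 40.1% of the genes. A match is a description of the letters and not evidence of binding.

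Among the 29 genes, Hmgcs1, Sqle and Abca1 fell in cKO cerebella and 0 rose. The 3 calls are 10.3% of the members, against 2.64% of all 15467 genes tested (edgeR quasi-likelihood test, Benjamini-Hochberg adjusted over all genes, threshold 0.05). For calls in the lower direction alone the share over all genes was 1.38%. The changes were small: Hmgcs1 fell by 9.85%, Abca1 fell by 13.0% and Sqle fell by 14.3%. Of the 29 genes, 20 lay below 0 and 9 above 0 on the log2 fold change scale, with a median of −0.06, where the median over all genes tested was −0.00027 and 50.2% of genes were negative. An unadjusted p under 0.05 with a lower level in cKO was reached by 12 of the 29 (41.4%, against 7.08% of all genes), and with a higher level by 2, against 7.16% of all genes. The genes were chosen with earlier results of these libraries known, so these shares describe the members and test nothing about them as a set. In no member did the 6 cKO libraries lie wholly to one side of the 6 WT libraries, which happened for 2.09% of all genes (1.14% lower and 0.95% higher in cKO).

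**Figure D1:**
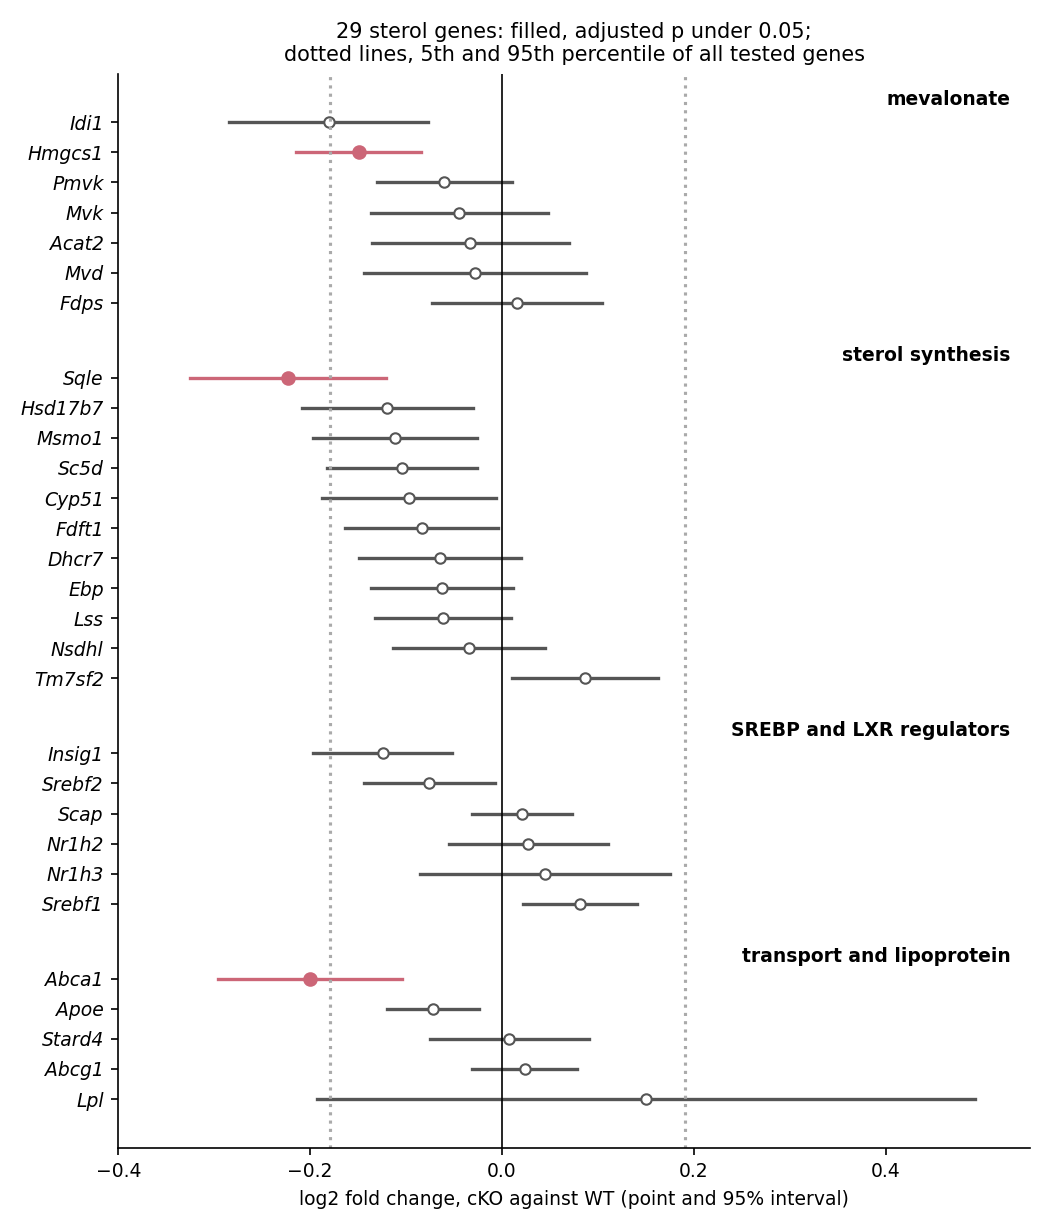
Log2 fold change of cKO against WT for the 29 genes by role, with points at the estimate and lines for its 95% interval, filled and red where the adjusted p was under 0.05. Hmgcs1, Sqle and Abca1 are the filled points, and the dotted lines at −0.18 and 0.19 enclose the middle 90% of all tested genes.

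The mevalonate enzymes were led by Hmgcs1 and Idi1, of which only Hmgcs1 passed the test. Hmgcs1, the cytosolic HMG-CoA synthase of the early pathway, measured 137, 144 and 152 CPM (lowest, median and highest of 6) in WT and 124, 127 and 138 CPM in cKO. Of the cKO libraries 5 lay below the lowest WT library, and cKO replicate 6, at 138 CPM, lay just above it. The mean went from 143.4 ± 5.50 to 129 ± 5.55 CPM (SD, n = 6 each), a log2 fold change of −0.15 (SE 0.03, 95% interval −0.21 to −0.08) with an edgeR adjusted p of 0.0101. An exact two-sided permutation test of its log2 CPM over all assignments of the 12 libraries to groups gave p = 0.00649. Hmgcs1 overlaps the antisense gene Gm48342, and Sqle and Abca1 overlap no annotated gene.

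Idi1, the isomerase that sets the ratio of the isoprenoid building blocks, measured 14.3, 15.7 and 16.3 CPM (lowest, median and highest of 6) in WT and 12.3, 13.9 and 14.5 CPM in cKO. All 6 cKO libraries lay below the WT median and 3 lay below the lowest WT library. Its log2 fold change of −0.18 (SE 0.05, 95% interval −0.28 to −0.08) did not pass the test across all genes (edgeR adjusted p = 0.0609, exact permutation p = 0.00866). The other mevalonate enzymes lay closer to 0. Pmvk, the phosphomevalonate kinase, had a log2 fold change of −0.06 (95% interval −0.13 to 0.01), and Mvk, the mevalonate kinase that acts before it, −0.04 (−0.14 to 0.05). Acat2, a thiolase at the entry of the pathway, had −0.03 (−0.14 to 0.07), the decarboxylase gene Mvd −0.03 (−0.14 to 0.09), and Fdps, the farnesyl diphosphate synthase, 0.02 (−0.07 to 0.10). The 95% intervals of these 5 enzymes all include 0, and none of them reaches the −0.15 estimated for Hmgcs1. That estimate has its own 95% interval (−0.21 to −0.08), and differences between enzymes were not tested.

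The later sterol enzymes were mostly lower, 10 of 11 with a negative log2 fold change and a median of −0.08, yet Sqle alone passed the test. Sqle, the squalene epoxidase that is the second control point of the pathway, measured 38.7, 42.5 and 49.4 CPM (lowest, median and highest of 6) in WT and 34.4, 36.3 and 39.5 CPM in cKO. Only cKO replicate 4, at 39.5 CPM, was above the lowest WT library, WT replicate 6, and WT replicate 4 was the highest of all at 49.4 CPM. The mean went from 42.7 ± 3.70 to 36.4 ± 1.84 CPM (SD, n = 6 each), which is −0.22 on the log2 scale (SE 0.05, 95% interval −0.33 to −0.12; edgeR adjusted p = 0.0151, exact permutation p = 0.00433).

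No other later enzyme passed. Hsd17b7, a sterol ketoreductase, went from 24.2 ± 1.12 to 22.2 ± 1.31 CPM, Msmo1, the sterol C4 methyl oxidase, from 42.1 ± 2.39 to 39.0 ± 2.01 CPM, and Sc5d, the lathosterol oxidase, from 66.8 ± 3.24 to 62.0 ± 3.11 CPM (SD, n = 6 each). Their log2 fold changes were −0.12, −0.11 and −0.10, each with SE 0.04 (edgeR adjusted p = 0.182, 0.192 and 0.180). For all 3 genes every cKO library lay below the WT median. Cyp51, the lanosterol demethylase, had −0.10 (95% interval −0.19 to −0.01) and Fdft1, the squalene synthase that stands before Sqle, −0.08 (−0.16 to −0.0043). Dhcr7, which carries out the last reduction to cholesterol, had −0.06, the sterol isomerase Ebp −0.06, the lanosterol synthase Lss −0.06 and Nsdhl, a dehydrogenase of demethylation, −0.03, all with intervals that include 0.

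Tm7sf2, a sterol C14 reductase, stood apart from the other later enzymes in direction. It measured 22.3, 23.2 and 25.5 CPM (lowest, median and highest of 6) in WT and 24.0, 24.9 and 25.7 CPM in cKO, and all 6 cKO libraries lay above the WT median. The difference of 0.09 in log2 CPM (95% interval 0.01 to 0.16; edgeR adjusted p = 0.276, exact permutation p = 0.0216) did not pass. Tm7sf2 overlaps Vps51 on the same strand, so its counts could hold reads of that gene. The same holds for Fdps, which overlaps Gm43738 on the same strand. Idi1, Mvd, Fdft1, Lss and Cyp51 overlap genes on the opposite strand, and the use of strand in counting is unknown.

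**Figure D2:**
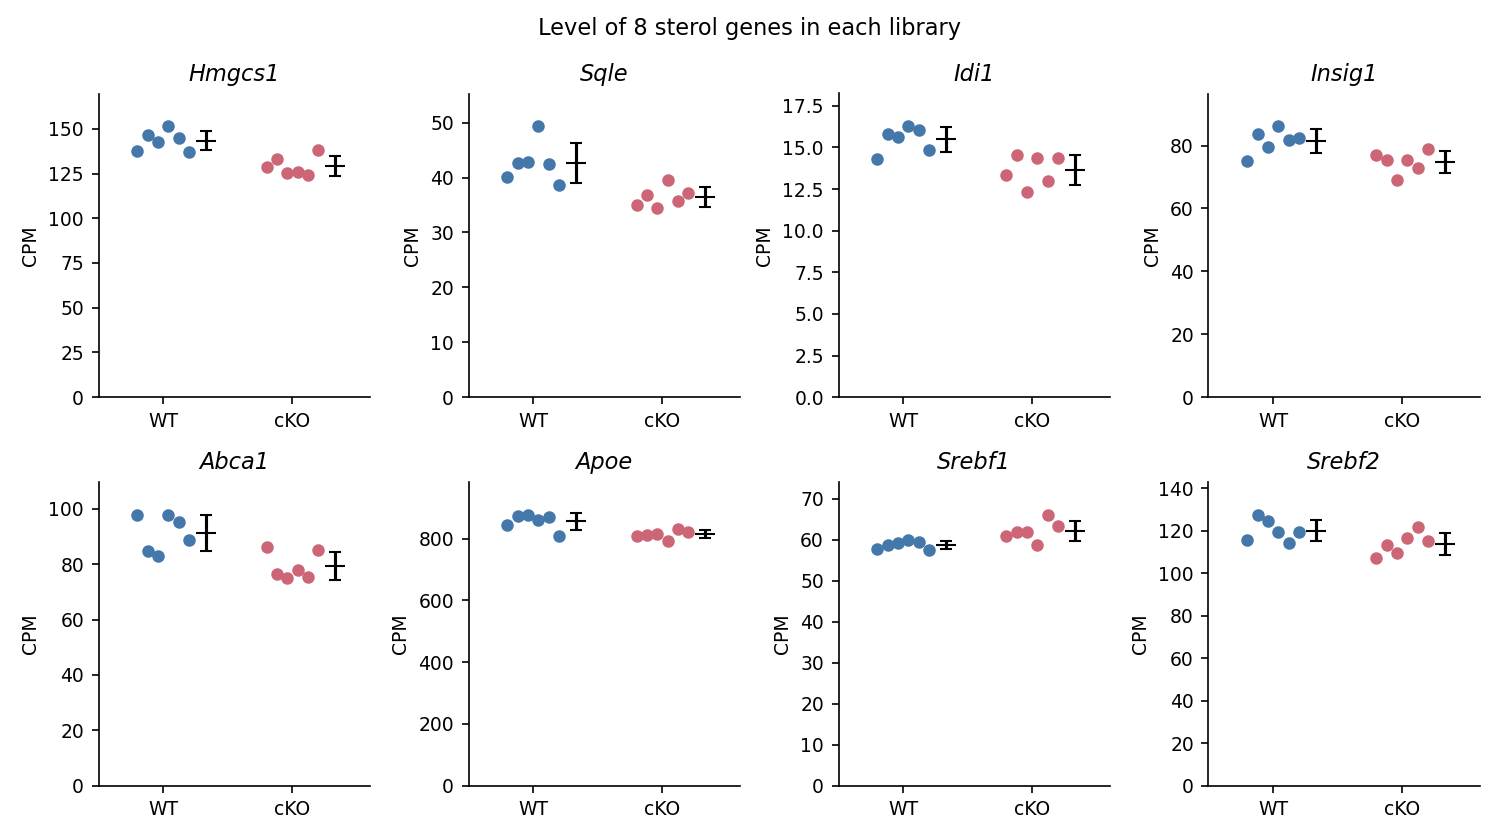
Level in CPM, from 0, of 8 genes in each of 6 WT (blue) and 6 cKO (red) libraries, 1 point each, with the mean and SD in black. For Hmgcs1, Sqle and Abca1 the cKO points sit lower with 1 or 2 libraries reaching into the WT range, while the Srebf1 points sit slightly higher in 5 of 6 cKO libraries.

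Among the regulators 0 of 6 passed the test. Insig1, which retains SCAP in the endoplasmic reticulum and is itself a target of SREBPs, measured 75.2, 82.1 and 86.2 CPM (lowest, median and highest of 6) in WT and 69.1, 75.4 and 79.0 CPM in cKO, all 6 cKO libraries being below the WT median. At −0.12 on the log2 scale (SE 0.03, 95% interval −0.20 to −0.05) it did not pass (edgeR adjusted p = 0.0642, exact permutation p = 0.013). Srebf2, the gene of SREBP-2, went from 120.0 ± 5.11 to 113.8 ± 5.18 CPM (SD, n = 6 each) with wide overlap of the groups (log2 fold change −0.08, SE 0.03, edgeR adjusted p = 0.288).

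Srebf1, which encodes the SREBP forms that favour fatty acid synthesis, had the opposite sign. It measured 57.6, 59.0 and 59.9 CPM (lowest, median and highest of 6) in WT and 58.8, 62.0 and 66.2 CPM in cKO. Of the cKO libraries 5 lay above all WT libraries, which were themselves tightly grouped, and cKO replicate 4 lay within them. The log2 fold change of 0.08 (SE 0.03, 95% interval 0.02 to 0.14) did not pass (edgeR adjusted p = 0.163, exact permutation p = 0.0108). Scap, the SREBP escort, had a log2 fold change of 0.02 (95% interval −0.03 to 0.07). The LXR genes Nr1h2 and Nr1h3 had 0.03 (−0.06 to 0.11) and 0.04 (−0.09 to 0.17).

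Abca1, which loads cholesterol onto apolipoproteins outside the cell, was the transport gene that fell. Its level was 82.9, 92.0 and 97.9 CPM (lowest, median and highest of 6) in WT and 75.0, 77.2 and 86.1 CPM in cKO. In cKO, 4 libraries lay below all WT libraries, while replicates 1 and 6, at 86.1 and 85.1 CPM, lay above the lowest WT libraries, replicates 3 and 2. The mean went from 91.2 ± 6.61 to 79.3 ± 4.97 CPM (SD, n = 6 each), a log2 fold change of −0.20 (SE 0.05, 95% interval −0.30 to −0.10; edgeR adjusted p = 0.0205, exact permutation p = 0.013). Without WT replicate 1, 4 or 5 or cKO replicate 3 the call of Abca1 was lost, at log2 fold changes of −0.19 to −0.18 and edgeR adjusted p = 0.0552, 0.0615, 0.0505 and 0.0575 in that order. Hmgcs1 and Sqle kept their calls without any single library. With 3 surrogate variables in the fit Hmgcs1 was called (edgeR adjusted p = 0.0303) and Sqle and Abca1 were not (0.0819 and 0.0796), and with a score of forebrain markers, described below, none of the 3 was (0.0711 for Hmgcs1, 0.173 for Sqle and 0.0692 for Abca1).

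Apoe, the main carrier of cholesterol between brain cells, was by far the most abundant member. It measured 807, 865 and 878 CPM (lowest, median and highest of 6) in WT and 793, 815 and 831 CPM in cKO, with 5 WT libraries above all cKO libraries and WT replicate 6 among them. Its log2 fold change of −0.07 (SE 0.02, 95% interval −0.12 to −0.02) did not pass (edgeR adjusted p = 0.123, exact permutation p = 0.0152). Abcg1, a second sterol exporter and like Abca1 a classic LXR target, measured 118, 126 and 132 CPM in WT and 124, 128 and 131 CPM in cKO (lowest, median and highest of 6), with a log2 fold change of 0.02 (95% interval −0.03 to 0.08). Stard4, a cytosolic sterol carrier, had 0.01 (−0.08 to 0.09). Lpl, the lipoprotein lipase, was rare, with 21 to 108 counts a library. It measured 0.88, 1.35 and 2.04 CPM in WT and 1.10, 1.52 and 1.96 CPM in cKO (lowest, median and highest of 6). Its log2 fold change was 0.15, with a 95% interval (−0.19 to 0.49) wider than those of Hmgcs1, Sqle and Abca1. The power to detect a change at so low a level was not measured.

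Levels of different genes were compared per kilobase of annotated exon. In WT, Apoe had 400.1 ± 12.4 CPM per kilobase, Hmgcs1 31.2 ± 1.20, Insig1 26.3 ± 1.22 and Pmvk 18.5 ± 0.58 (SD, n = 6). Of the 18 synthesis enzymes Hmgcs1 was the most abundant on this scale and Idi1 the least, at 4.42 ± 0.22, within its spread of Lss at 4.60 ± 0.20. Sqle lay between them at 7.69 ± 0.67, beside Acat2 at 8.28 ± 0.63, and Abca1 had 8.81 ± 0.64. Lpl was the lowest of the 29 at 0.13 ± 0.036.

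**Figure D3:**
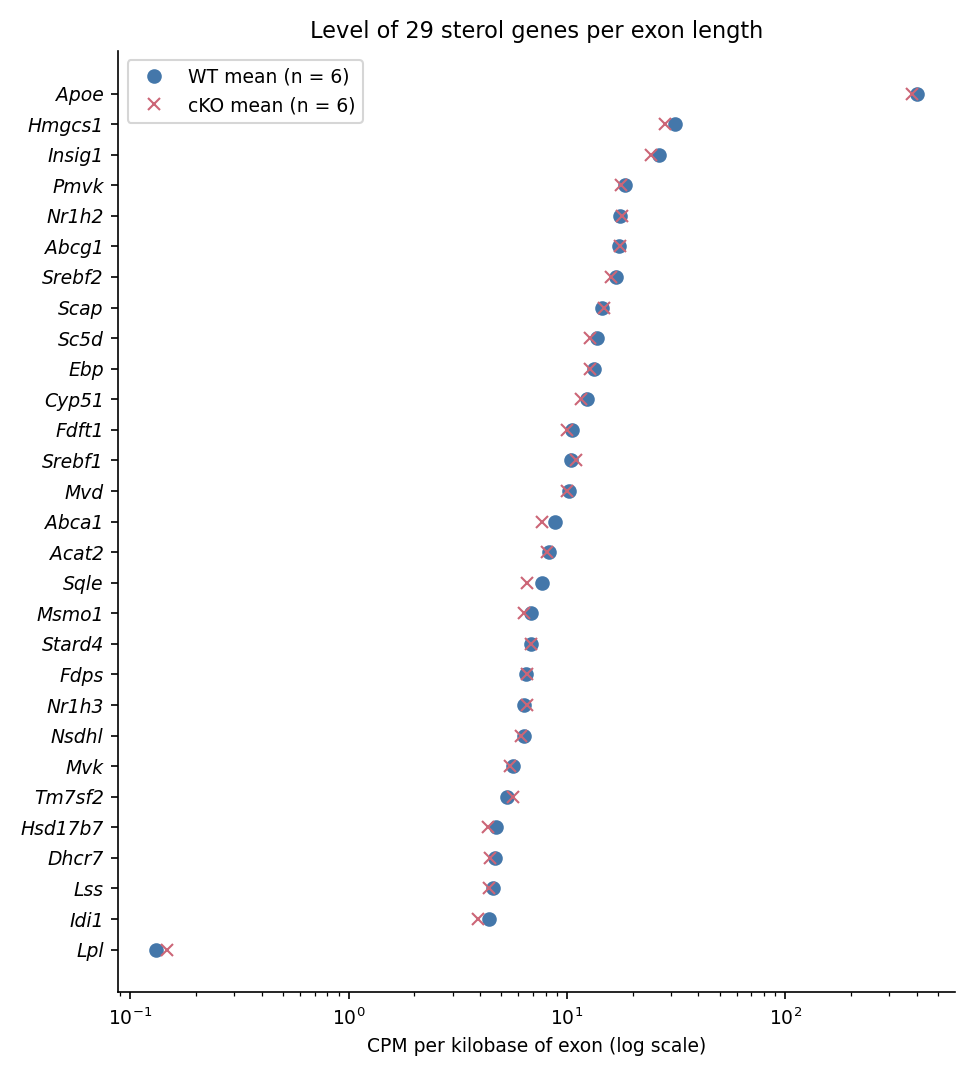
Mean level of each of the 29 genes in CPM per kilobase of exon on a log axis, with circles for WT and crosses for cKO (n = 6 each). Apoe lies apart at 400.1 in WT and Lpl at 0.13, and the shift between genotypes is small beside the differences between genes.

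Averaged over the 18 synthesis enzymes, the level was below its mean over the 12 libraries in every cKO cerebellum, though not for every enzyme. The mean deviation of the 18 enzymes, in log2 CPM from each gene's mean, ran from −0.118 in cKO replicate 3 to −0.0025 in cKO replicate 6, and from −0.013 in WT replicate 1 to 0.071 in WT replicate 4. The groups overlapped through WT replicate 1, which lay below cKO replicates 4 and 6. In cKO replicates 1 to 6, 13, 14, 17, 9, 10 and 10 of the 18 enzymes were below their mean, and in WT replicates 1 to 6, 11, 5, 5, 7, 6 and 3. By this count too WT replicate 1 lay among the cKO libraries.

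**Figure D4:**
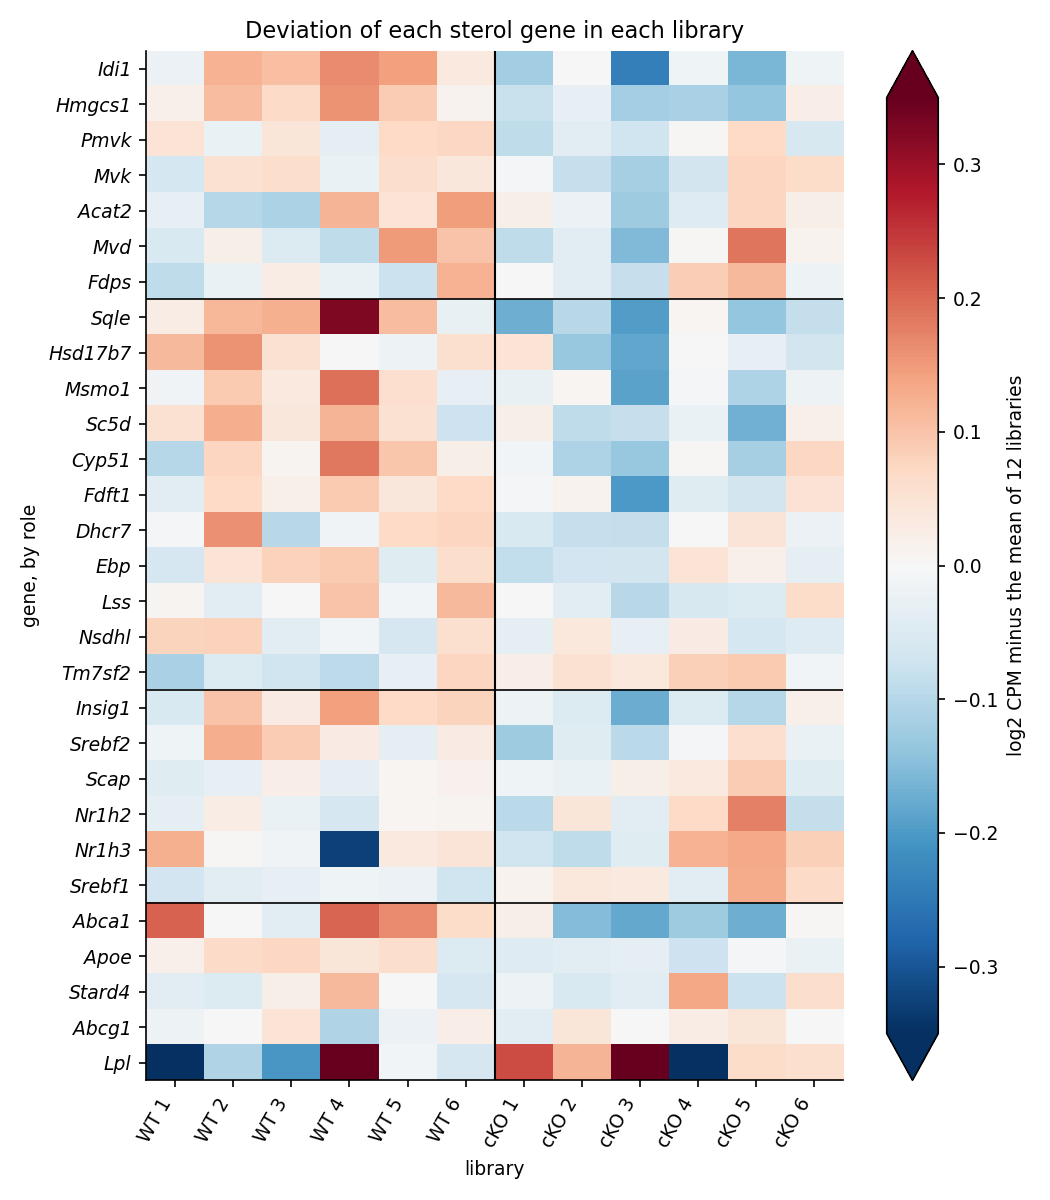
Log2 CPM of each gene in each library minus its mean over the 12 libraries, red above and blue below, with genes ordered by role and a line between WT and cKO libraries. The rows of Idi1, Hmgcs1, Sqle and Insig1 are blue in most cKO columns, most of all in cKO replicate 3 for Idi1, Sqle and Insig1, while Tm7sf2 and Srebf1 run the other way.

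After each genotype's mean was removed, the 153 pairs of synthesis enzymes had a median Pearson r of 0.183 over the 12 libraries, with a range of −0.762 to 0.872, where the median over all pairs of tested genes was −0.0015. These pairs share the same libraries and are given as a description. Of 28 relations of Hmgcs1 to the other members, the strongest was with Msmo1 (r = 0.774, permutation p = 0.00315, adjusted p = 0.0568; Spearman rho = 0.804, permutation p = 0.0025, adjusted p = 0.0536; r = 0.738 without the 2 libraries farthest from the median of Hmgcs1). Next came Idi1 (r = 0.748, permutation p = 0.006, adjusted p = 0.0568; rho = 0.783, permutation p = 0.00383, adjusted p = 0.0536; r = 0.713 without the 2 libraries). For Insig1 r was 0.739 (permutation p = 0.00617, adjusted p = 0.0568; rho = 0.643, permutation p = 0.0281, adjusted p = 0.105), and r was 0.561 without the 2 libraries. None of the 28 relations passed after Benjamini-Hochberg adjustment. Of the 17 other synthesis enzymes, only 10 had a positive r with Hmgcs1. The strongest negative relations were with Scap (r = −0.66, permutation p = 0.0194, adjusted p = 0.0823) and the enzyme gene Pmvk (r = −0.606, permutation p = 0.0379, adjusted p = 0.118). Abca1 lay within the range of the synthesis enzymes (r = 0.334, permutation p = 0.283, adjusted p = 0.418; rho = 0.196, permutation p = 0.546, adjusted p = 0.769; r = −0.101 without the 2 libraries).

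Other genes of sterol and lipid handling were taken from a list of 82 symbols in 6 roles, 77 of them tested. Of these 3 fell and 1 rose, or 5.19%, against 2.64% of all genes. Calls were made in uptake and in intracellular transport, and 0 of 11 further synthesis enzymes, 0 of 14 SREBP processing and regulator genes, 0 of 5 oxysterol enzymes and 0 of 12 fatty acid synthesis genes passed (edgeR), where 2, 2, 0 and 2 had an unadjusted p under 0.05.

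Of 14 uptake and lysosomal export genes 3 fell, Lrp8 among them. Lrp8, a receptor for reelin and apolipoprotein E, measured 154.2, 159.6 and 168.3 CPM (lowest, median and highest of 6) in WT and 145.5, 148.5 and 154.9 CPM in cKO. Only the highest cKO library reached past the lowest WT library. The mean went from 160.0 ± 4.98 to 149.0 ± 3.55 CPM (SD, n = 6 each), and Lrp8 fell by 6.96% (log2 fold change −0.10, SE 0.02, edgeR adjusted p = 0.0278, exact permutation p = 0.00433).

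Stard5, a sterol and bile acid binding protein of the same family as Stard4, was the gene that rose. It measured 28.7, 31.8 and 34.2 CPM (lowest, median and highest of 6) in WT and 34.1, 35.7 and 38.6 CPM in cKO, where 5 cKO libraries lay above all WT libraries (1.13-fold, log2 fold change 0.18, SE 0.04, edgeR adjusted p = 0.0215). When WT replicate 3, WT replicate 4 or cKO replicate 3 was left out, 2 of the 77 genes were called, since Stard5 (edgeR adjusted p = 0.0602, 0.0535 and 0.0553) and Lrp8 (0.092, 0.0562 and 0.0797) were lost. Leaving out WT replicate 1, WT replicate 6 or cKO replicate 4 also ended the call of Lrp8 (edgeR adjusted p = 0.0668, 0.0541 and 0.0696), as did surrogate variables (0.12). With all libraries thinned to the same depth Stard5 was not called (edgeR adjusted p = 0.0698) and Lrp8 was (0.0483). Stard5 overlaps Gm45838 on the same strand and Il16 on the opposite strand, and Lrp8 overlaps antisense genes, so their counts could hold reads of those genes. Of the 7 genes called among the members and the wider list, 4 lie on chromosome 4, Abca1 and Lrp8 among them. The part of chromosome position in these calls was not tested.

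In the roles without a call, the genes with the smallest p were as follows. Among synthesis enzymes, Acss2, which makes acetyl-CoA from acetate, had a log2 fold change of −0.08 and Tmem97, a sterol-responsive membrane protein, −0.18 (both edgeR adjusted p = 0.15). Of the LXR partner genes, Rxra had 0.10 and the rare Rxrg 0.40 (edgeR adjusted p = 0.34 and 0.303). The oxysterol enzymes Cyp27a1 and Cyp7b1 had 0.05 and 0.06. In fatty acid synthesis Acaca, the acetyl-CoA carboxylase, had −0.10 (edgeR adjusted p = 0.108) and the desaturase Fads2 0.08 (edgeR adjusted p = 0.285).

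**Figure D5:**
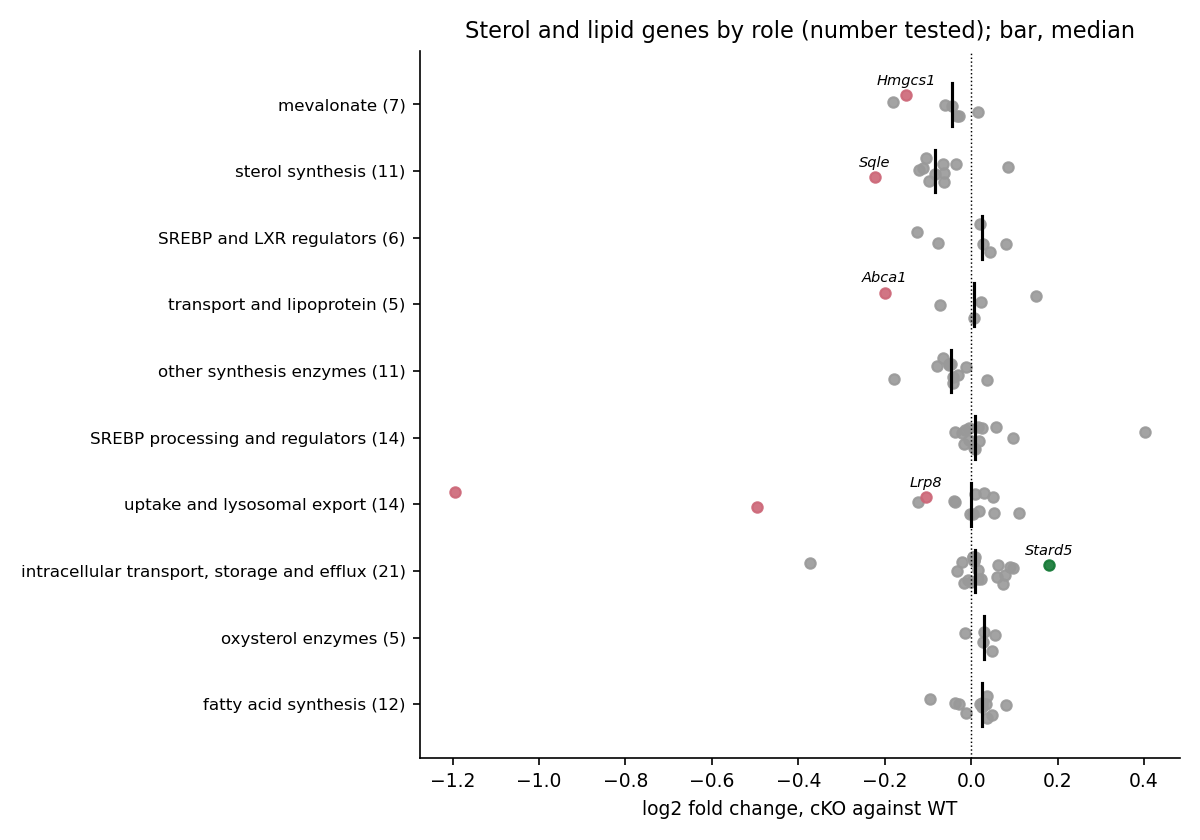
Log2 fold change of cKO against WT for the 29 genes and the 77 further genes tested, by role, with 1 point per gene, red where it fell, green where it rose and grey where it did not pass, and a bar at each median. The medians of the enzyme roles lie at −0.04, −0.08 and −0.05, and those of the other roles between 0.00034 and 0.03.

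Markers of other cells and tissue were measured in the same libraries. Of the forebrain and midbrain markers, 10 of 16 were tested, 1 rose, and the defining genes Emx1 and Slc6a3 were each at 0 counts in 2 libraries. The 10 had a median log2 fold change of 0.31, and 7 were positive. Their summed level was 46.7 to 69.7 CPM in WT and 42.3 to 75.2 CPM in cKO, and their mean log2 CPM ran from 0.80 to 1.45 in WT and from 0.93 to 1.54 in cKO. This mean moved with genotype: 5 cKO libraries lay at 1.19 to 1.54, and 5 WT libraries lay at 0.80 to 1.01, with WT replicate 5 and cKO replicate 4 on the other side. With this mean as a covariate 0 of the 29 genes were called (edgeR, 6 with an unadjusted p under 0.05), at log2 fold changes of −0.15 for Hmgcs1, −0.18 for Sqle and −0.22 for Abca1. A fit chosen after the data were seen, which left out the 4 libraries with the highest means (WT replicate 5 and cKO replicates 1, 3 and 5), called 0 as well (7 with an unadjusted p under 0.05), at −0.11, −0.17 and −0.17 (adjusted p = 0.286, 0.309 and 0.202). In each of these fits 1 of the 77 further genes was called, and neither Lrp8 nor Stard5 was.

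Oligodendrocytes and astrocytes are the cells in which sterol synthesis genes are typically strong. Of 14 oligodendrocyte markers 0 were called and 1 had an unadjusted p under 0.05 (edgeR), with a summed level of 4357 to 4911 CPM in WT and 4139 to 5113 CPM in cKO. Of the 14, 10 had a negative log2 fold change and 4 a positive one, with a median of −0.036. With the mean log2 CPM of these markers as a covariate Hmgcs1, Sqle and Abca1 were called again (edgeR adjusted p = 0.0154, 0.0385 and 0.0448), and Lrp8 was not (0.0633). The log2 fold changes in that fit were −0.13 for Hmgcs1, −0.21 for Sqle and −0.19 for Abca1. Of 10 astrocyte and Bergmann glia markers 0 were called and 3 had an unadjusted p under 0.05, with 3794 to 3999 CPM in WT and 3801 to 4091 CPM in cKO. Of 10 microglia markers Cx3cr1 and Csf1r rose (20%, against 2.64% of all genes). All 10 had a positive log2 fold change, 4 of them with an unadjusted p under 0.05 (edgeR), and their summed level was 163 to 177 CPM in WT and 171 to 199 CPM in cKO. None of these tested markers was at 0, and the part of astrocytes and microglia in the results was not tested.

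The authors' deposited table gives 6 of the 29 genes an adjusted p under 0.05: Hmgcs1 (0.000569), Sqle (0.000886), Abca1 (0.00168), Insig1 (0.0265), Idi1 (0.0331) and Apoe (0.0494). That table does not state its direction, which was read from 400 genes called in both analyses, all of the same sign, and all 6 genes are lower in cKO in the authors' deposited table.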

How the data were processed

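Raw read counts for each gene symbol were deposited by the authors, per the file headers. They also deposited a DESeq2 table with, per the file headers, a mean normalised signal, a log2 fold change, its standard error, a Wald score, and p-values. STAR, DESeq2 and mm10 are named per the submitters' processing notes. For the versions, the counter, its annotation and its use of strand, the sources used here give nothing. The kit was stranded and all samples shared the same lanes, per the labels' protocols. All 12 count columns matched samples by their identifiers.

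The counts were tested with edgeR 4.0.16 in R 4.3.3 (filterByExpr, TMM, glmQLFit, glmQLFTest) over all genes, with Benjamini-Hochberg adjustment at 0.05 and no covariate. CPM are counts scaled after TMM. Intervals were derived from the test statistic. Exon lengths and positions came from GENCODE M21 (mm10). DESeq2 1.42.0 and sva 3.50.0 (3 surrogate variables) served as alternatives. On simulated counts for cKO against WT (15408 genes, 50 changed per fold), 50% of genes changed 1.1-fold and 92% of those changed 1.2-fold were recovered, with 14 false calls. The changed genes were drawn from the more abundant genes only. Noise was drawn separately for each gene, so variation shared between genes, as in the forebrain score, was not simulated. Permutation tests were two-sided. Correlations used 100000 permutations.

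Replicate numbers only name libraries in order of deposit. Members and lists were chosen with earlier results of these data known. Genes named are all 29 members, with values by library for those called and for the 4 smallest p in each direction, and, of the wider list, every called gene or otherwise the 2 smallest p of a role. A few genes under this rule are counted but not reported by name here.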

Additional observations from a re-analysis of the deposited data

Results flagged for a closer look

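In the groups of 6 libraries examined for the 29 genes and the 4 called genes of the wider list (66 groups), a single library stood far from the others. Nr1h3, the gene of LXRα, measured 12.9 CPM in WT replicate 4, where the other 5 WT libraries ran from 16.1 to 17.7 CPM. The gap is 0.66 of the whole range of the group, above Dixon's 95% limit for 6 samples, which chance passes in about 5% of groups. Nr1h3 had no call with or without this library.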

How the results depend on the processing

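The count of called genes among the 29 was 3, and it was 3 with DESeq2 size factors, upper-quartile scaling, no low-count filter, thinned counts or the oligodendrocyte covariate and 4 with a robust fit. It was 6 with the DESeq2 Wald test (Idi1, Insig1 and Apoe in addition), 1 with surrogate variables (Hmgcs1), 0 with the forebrain covariate and 0 without the 4 libraries highest in that score (a fit chosen after seeing the data), and it ran from 2 to 5 when single libraries were left out (5 without cKO replicate 6). Of all genes, 409 were called at first, 198 with the forebrain covariate, 208 without the 4 libraries and 272 to 459 without single libraries, 272 being without WT replicate 3. Of the wider list 4 were called at first, 3 each with surrogate variables and the oligodendrocyte covariate (Lrp8 lost in both), 2 with thinned counts, 1 with the forebrain covariate, 1 without the 4 libraries and 2 to 5 without single libraries. The cause of these shifts was not tested. Of 899 refitted values of single genes, 843 kept direction and side of the threshold, 30 lost a call, 9 gained one and 17 changed sign. The sign changes were in uncalled genes. These lay near 0 at first except for Pmvk (log2 fold change −0.06, SE 0.03) and the rare Lpl (0.15, SE 0.16). The refitted values were 0.013 (Pmvk), 0.015 (Mvd) and −0.030 (Stard4) with thinned counts, −0.023 and −0.0049 (Fdps with surrogate variables and the oligodendrocyte covariate), 0.0060 and −0.041 (Nsdhl and Lpl with the forebrain covariate), and 0.0014 and −0.0051 (Mvd and Lpl without the 4 libraries). With single libraries left out the log2 fold changes ran from −0.071 to 0.0013 for Mvd, −0.0060 to 0.047 for Fdps, −0.0073 to 0.048 for Nr1h2, −0.0073 to 0.069 for Nr1h3 and −0.020 to 0.032 for Stard4. No scaling moved the median of all genes by more than 0.0022, and 14 to 17 of the 18 synthesis enzymes had a negative log2 fold change in every fit. No paired analysis was possible because the labels give no replicate numbers shared between the groups.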
